A study of Saccharomyces cerevisiae with 6 samples.

Results

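The genes that copy yeast DNA were followed here from the helicase to the enzyme that makes its building blocks. They are 42 genes, chosen by their function but with earlier results of these data known. Their symbols were matched in the gene tables of all 6 libraries, out of 5925 genes in those tables. All 42 were found, all lie on 14 nuclear chromosomes without overlapping another annotated gene, and all passed the filter on low counts. They were sorted into the MCM helicase core, the CMG partners with MCM10, the origin recognition complex, the 3 replicative polymerases, the sliding clamp and its loader, replication protein A, the enzymes that finish Okazaki fragments, and ribonucleotide reductase (RNR).

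Poly(A) RNA of Saccharomyces cerevisiae was sequenced from BSGX001 and from BSGX001 (thi2Δ), 3 libraries each, all taken at the GX stage, 20 h into a co-fermentation at 30 °C in a yeast nitrogen base medium. Its carbon sources were glucose (20 g/L) and the pentose xylose (20 g/L). Both strains derive from the laboratory strain CEN.PK 113-5D, and their genotypes share Ru-XI (a xylose isomerase gene), XK (xylulokinase), gre3::PPP (pentose phosphate pathway genes at the GRE3 locus), cox4delta and adaptive evolution in xylose. Only the second strain carries thi2delta. The labels do not say whether the 3 libraries of a strain came from separate cultures or whether the deletion strain is 1 clone, so the p-values measure the spread between these libraries.

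Eukaryotic replication starts where the origin recognition complex loads the MCM ring onto DNA. The ring is activated by CDC45 and the GINS complex, DNA polymerase alpha lays down primers, and polymerases epsilon and delta extend the strands while held by the PCNA clamp. RNR converts ribonucleotides into the deoxyribonucleotides that the polymerases use, and in yeast many of these genes are transcribed in a burst at the G1/S boundary through the factor MBF, which binds the MCB element ACGCGT.

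Library totals ranged from 7584920 to 12255688 counts, and the lowest count of a member was 30, for SLD5 in the third BSGX001 library. The targeted gene THI2 had 22.7, 24.5 and 27.0 CPM (counts scaled to library size and by TMM, the trimmed mean of M-values) in BSGX001 and 9.81, 10.9 and 13.9 CPM in the libraries labelled thi2Δ. THI2 was therefore lower in those libraries but not absent (log2 fold change -1.10, SE 0.14, adjusted p = 6.32e-08), and which part of the gene the remaining reads came from was not tested. Over all 5774 genes tested, 51.3% differed between the strains, 26.1% higher and 25.2% lower in thi2Δ (the quasi-likelihood test of edgeR, called where the adjusted p was under 0.05). Of the a-cell markers, 5 of 5 passed the filter and 3 rose, while of 3 alpha-cell markers STE3, read at 110 to 150 CPM, was called lower with TMM (log2 fold change -0.34) but not with library totals (-0.12), and MF(ALPHA)1 (-0.32) and MF(ALPHA)2 (0.24), read at 6.41 to 14.3 CPM, were not called.

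Of the 42 replication genes, 23 were called, which is 54.8% and close to the 51.3% of all genes. The direction was uneven. In thi2Δ 18 members rose (42.9%, beside 26.1% of all genes) and 5 fell (11.9%, beside 25.2%), and 19 were not called. A change of at least 1.5-fold was called for 7 higher members (16.7%, beside 6.74%) and for 1 lower member (2.38%, beside 4.35%). The median log2 fold change was 0.21 over the members and 0.0093 over all genes tested. The 7 were MCM5, RFA1, RFA3, POL30, PSF1, RAD27 and RFC5, and the lower one was DPB2. The 3 thi2Δ libraries lay above all of BSGX001 for 21 members (50%, beside 29.1% of all genes) and below them for 5 (11.9%, beside 28.7%). RFC5 lay at the threshold of 0.585 with a log2 fold change of 0.59, and RNR1 lay just outside it with 0.54.

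**Figure D1:**
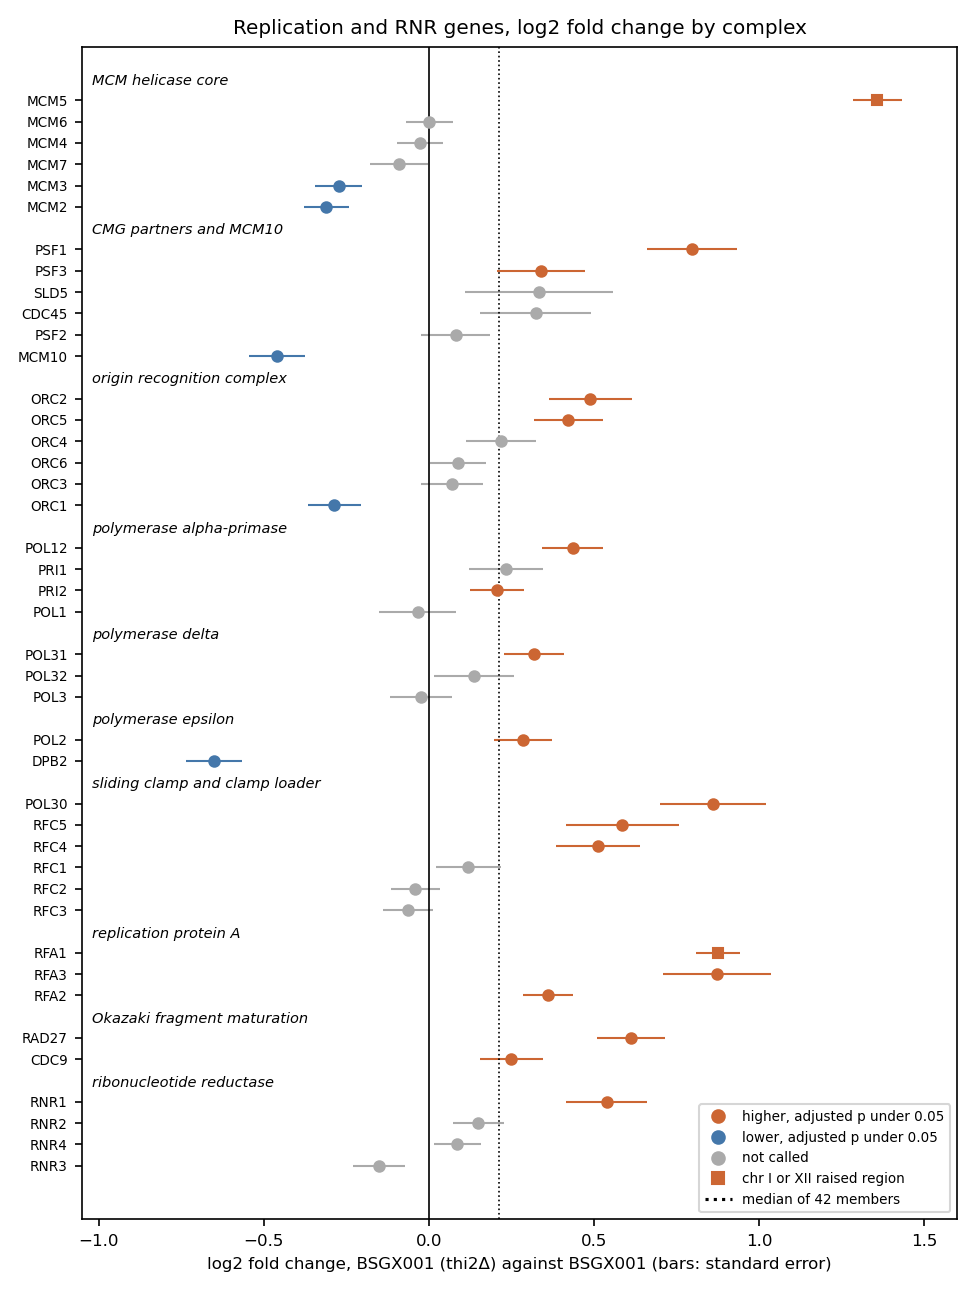
Log2 fold change of each of the 42 members, BSGX001 (thi2Δ) against BSGX001, grouped by complex and sorted within it, with bars of 1 standard error from edgeR (3 libraries per strain). Orange marks the 18 higher members, blue the 5 lower ones and grey the 19 not called, squares mark RFA1 and MCM5, and the dotted line is the members' median of 0.21.

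The scaling sets where 0 lies. With library totals in place of TMM the median of all genes moved from 0.0093 to 0.22, and that of the members from 0.21 to 0.43. By that scaling 32 members were higher (76.2%, beside 51.9% of all genes) and 2 were lower (4.76%, beside 10.3%). The 2 that stayed lower were DPB2 and MCM10, whereas MCM2, MCM3 and ORC1 were not called by library totals. Called higher only by library totals were MCM4, MCM6, CDC45, PSF2, SLD5, ORC3, ORC4, ORC6, PRI1, POL32, RFC1, RFC2, RNR2 and RNR4.

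MCB elements are shown first, because the promoters of the rising members hold them often. The letters ACGCGT, which read the same on both strands, occurred within 500 bases before the start codon in 20 of the 42 members (47.6%) and in 319 of 5893 genes (5.41%). The sites below come from some of the called members with an MCB, each with 12 flanking bases and the MCB in capitals. They are read 5′ to 3′ along the gene from the RefSeq assembly R64. Sites of the higher members PSF3, PRI2, POL31, POL2 and CDC9, with smaller log2 fold changes of 0.21 to 0.34, are not printed. R64 is a reference assembly, and the promoter sequences of BSGX001 and BSGX001 (thi2Δ) themselves were not examined. RFA1 and RFA2 encode the large and middle subunits of the single-strand binding protein RPA, POL12 the B subunit of polymerase alpha, RAD27 the flap nuclease, RNR1 the main large subunit of RNR, RFC4 a clamp loader subunit and DPB2 the second subunit of polymerase epsilon.
RFA1, chrI:158767-158796, reverse strand: tggaaaaatgtcACGCGTaaaaattagacg
RFA1, chrI:158737-158766, reverse strand: aggcgacaaaagACGCGTgaactaacataa
RFA2, chrXIV:48155-48184, forward strand: gccatatacgaaACGCGTtaggaaacgcgt
RFA2, chrXIV:48167-48196, forward strand: acgcgttaggaaACGCGTtctttcctttat
POL12, chrII:153815-153844, reverse strand: atagcgtggtagACGCGTaattttttttta
POL12, chrII:153792-153821, reverse strand: ttttttaccgtgACGCGTctcaccagagtt
RAD27, chrXI:226038-226067, reverse strand: cagatccccctaACGCGTttaaagctttta
RAD27, chrXI:225986-226015, reverse strand: ataggaaacgcgACGCGTaacatcgcgcaa
RNR1, chrV:298496-298525, forward strand: taaaaagaaaaaACGCGTaaacagtgtcgg
RNR1, chrV:298567-298596, forward strand: aattctaagtaaACGCGTcattttgatcct
RNR1, chrV:298632-298661, forward strand: gttgaatagaggACGCGTaaaaacgatatg
RFC4, chrXV:142674-142703, reverse strand: ctgttagattaaACGCGTtttttcttgaca
DPB2, chrXVI:888828-888857, forward strand: aaaagtgatgtgACGCGTtatttttcgcgt

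RFA1, RFA2, POL12 and RAD27 each carried a pair of MCB elements, and RNR1 carried 4, of which 3 are printed. DPB2 was the only one of the 5 lower members with an MCB, and it had 2. By call, an MCB was present in 13 of 18 higher members, in 1 of 5 lower members and in 6 of the 19 not called. Among the 13 are RFA1 and MCM5, which lie in regions of chromosomes I and XII that were higher as a whole in thi2Δ. The 6 not called were CDC45, ORC6, POL1, POL3, POL32 and RNR3. CDC45 and POL1 among them also carried a pair each, and none of the sites of the 6 is printed.

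On the log2 scale the median fold change was 0.32 for the 20 members with an MCB and 0.084 for the 22 without. Only the group with an MCB holds RFA1 and MCM5. Without them its median was 0.30 over 18 members, with 11 higher and 1 lower. For the 298 other genes with an MCB the median was 0.072, with 29.2% higher and 18.8% lower, and for the 5426 other genes without one it was 0.0056. Outside the raised regions, 291 other genes had an MCB, with a median of 0.064. The element was thus also present before many genes that did not rise, and its part in these values was not tested.

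Longer stretches are given for POL30, MCM5 and PSF1, 3 of the members with the largest rises. Each is the 250 bases before the start codon, with MCB (ACGCGT), SCB (CGCGAAA, the element of the related factor SBF, searched on both strands) and ECB (TTNCC and GGAAA with any 6 bases between them, an early cell cycle element bound by Mcm1, searched on both strands) in capitals.
POL30, chrII:425767-426016, reverse strand: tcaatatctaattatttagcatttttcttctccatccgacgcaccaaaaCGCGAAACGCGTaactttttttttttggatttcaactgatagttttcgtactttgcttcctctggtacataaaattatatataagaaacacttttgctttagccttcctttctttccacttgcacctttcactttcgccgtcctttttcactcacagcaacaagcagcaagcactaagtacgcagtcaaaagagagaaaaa
MCM5, chrXII:691305-691554, forward strand: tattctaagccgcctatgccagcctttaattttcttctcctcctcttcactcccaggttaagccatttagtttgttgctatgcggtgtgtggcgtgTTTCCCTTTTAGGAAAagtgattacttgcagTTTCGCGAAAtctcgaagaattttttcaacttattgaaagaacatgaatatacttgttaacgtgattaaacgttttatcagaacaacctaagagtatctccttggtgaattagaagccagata
PSF1, chrIV:472907-473156, forward strand: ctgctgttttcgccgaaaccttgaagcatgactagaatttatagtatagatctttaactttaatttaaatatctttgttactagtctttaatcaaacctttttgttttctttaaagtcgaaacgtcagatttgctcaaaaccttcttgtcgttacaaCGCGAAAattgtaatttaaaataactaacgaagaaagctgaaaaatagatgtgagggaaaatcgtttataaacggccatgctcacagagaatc

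In POL30, the gene of PCNA, an SCB and an MCB shared letters. MCM5 had an SCB on each strand, sharing letters, next to an ECB, and its MCB lay farther upstream at 325 bases before the start codon. PSF1, a GINS subunit, had an SCB and no MCB. RFA3 and RFC5, also at least 1.5-fold higher, had no MCB, SCB or ECB in the 500 bases searched. SCB was found in 7 members (16.7%, beside 5.92% of all genes), and ECB in 5 (11.9%, beside 1.48%), which were MCM3, MCM5, MCM6, MCM7 and POL3. The ECB was therefore before 4 of the 6 MCM genes, of which MCM5 rose, MCM3 fell and MCM6 and MCM7 were not called. The same pattern matched before 5 of the 5 a-cell marker genes, so it is not particular to replication genes. Whether a match acts as an early cell cycle element was not tested.

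**Figure D2:**
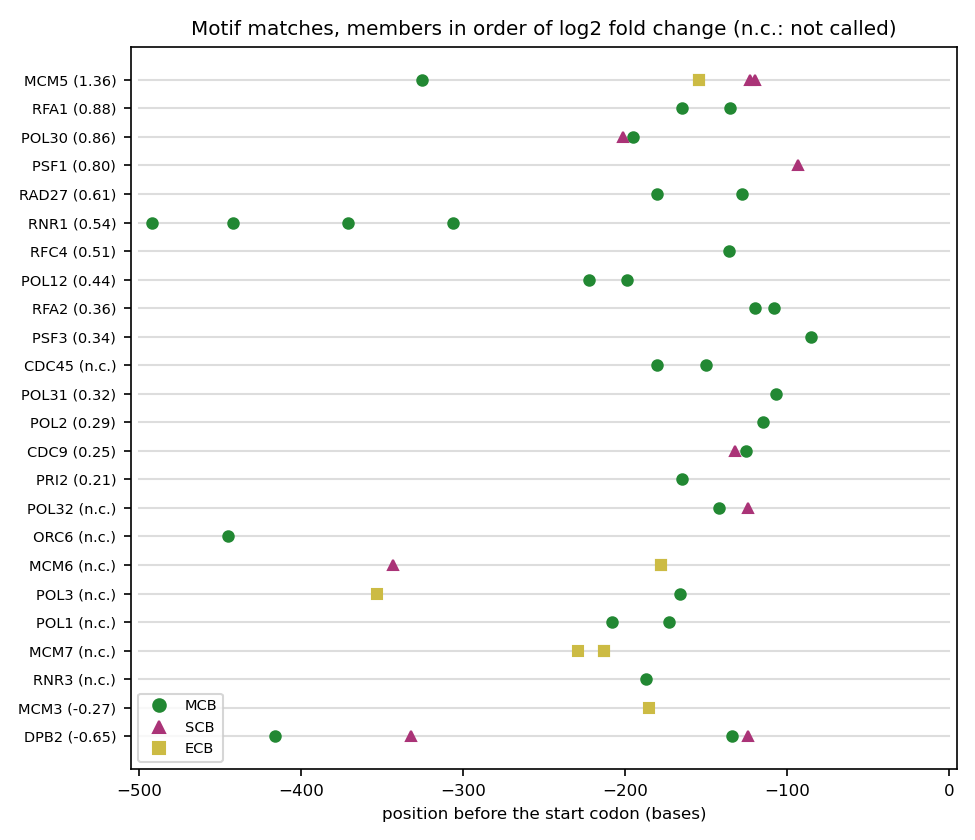
Positions of MCB (circles), SCB (triangles) and ECB (squares) matches in the 500 bases before the start codon, one line for each member that holds a match, in order of log2 fold change (in parentheses, or n.c. where not called). The MCB matches of RFA1 sit 165 and 135 bases before the start codon, while the 4 of RNR1 sit 492 to 306 bases before it.

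The MCM2 to MCM7 proteins form a ring with 1 copy of each, the motor of the replicative helicase. Its 6 genes did not move together. MCM5 rose, MCM2 and MCM3 fell, and MCM4, MCM6 and MCM7 were not called.

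MCM5 was at 63.5, 60 and 57.8 CPM in BSGX001 and at 164, 152 and 150 CPM in the libraries labelled thi2Δ. The strains were far apart, a 2.56-fold difference (log2 fold change 1.36, SE 0.076, adjusted p = 4.26e-15). MCM2 was at 246, 253 and 223 CPM against 194 CPM in each thi2Δ library, and it fell by 0.31 on the log2 scale (SE 0.068, adjusted p = 0.000338). MCM3 was at 154, 150 and 144 CPM against 129, 115 and 127 CPM and fell by 0.27 (SE 0.071, adjusted p = 0.00201). In both the thi2Δ libraries lay below all those of BSGX001, but with library totals the log2 fold changes were -0.095 and -0.058 and neither was called.

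The remaining ring genes overlapped between the strains. MCM4 was at 168, 183 and 189 CPM in BSGX001 and 184, 166 and 178 CPM in thi2Δ (log2 fold change -0.03). MCM6 was at 146, 149 and 153 CPM against 158, 143 and 145 CPM, and its means of 149.2 and 149.1 CPM were nearly equal. MCM7 was at 64.8, 79.3 and 61.6 CPM against 68.1, 61.5 and 63.3 CPM (log2 fold change -0.09). The sign of all 3 depended on the scaling or the libraries used.

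Compared per length, in FPKM (fragments per kilobase, scaled to library size), MCM5 was the lowest of the ring genes in BSGX001 with 24.1 ± 1.51 FPKM, which did not differ beyond the spread from the 25.1 ± 3.56 FPKM of MCM7, and MCM2 was the highest with 85.7 FPKM. In thi2Δ it was at 71.8 ± 2.73 FPKM, and only MCM2 at 80.3 FPKM was above it. The ratio of MCM5 to the geometric mean of its partners was 0.529, 0.470 and 0.486 in BSGX001 and 1.42, 1.43 and 1.35 in thi2Δ. The ratios did not overlap, and their log2 values differed by 1.5 (exact two-sided permutation test, p = 0.1, the smallest that 3 against 3 libraries allow). Taken against each partner alone the difference was 1.36 to 1.67.

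MCM5 lies on chromosome XII, from 691555 to 693882 on the forward strand in R64, within a stretch from ECM22 to GAS2 that was higher as a whole in thi2Δ. The 107 tested genes of this stretch, which was delimited from these same libraries, had a median of 1.06 on the log2 scale. MCM5 ranked 18 of the 107 and lay 0.30 above that median. The libraries hold no measure of DNA copies, and the part of the region in the MCM5 value was not tested.

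**Figure D3:**
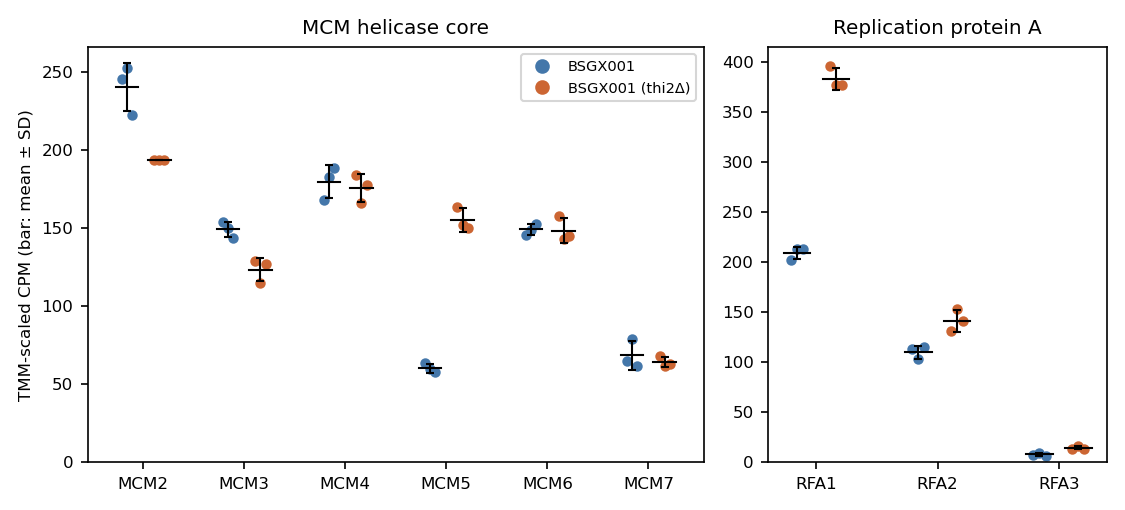
TMM-scaled CPM of the 6 MCM genes (left) and the 3 RPA genes (right) in each library, BSGX001 in blue and BSGX001 (thi2Δ) in orange, with mean ± SD bars (n = 3 libraries). The MCM5 libraries of thi2Δ sit at 150 to 164 CPM, above the 57.8 to 63.5 CPM of BSGX001, while MCM4, MCM6 and MCM7 overlap, and all 3 RPA genes lay higher in thi2Δ.

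CDC45 and the GINS complex (PSF1, PSF2, PSF3 and SLD5) turn the ring into the active CMG helicase, and MCM10 is needed for its activation. PSF1 and PSF3 rose and MCM10 fell, while CDC45, PSF2 and SLD5 were not called. PSF1 was at 11, 10.5 and 13.1 CPM in BSGX001 and 20.6, 21.1 and 18.1 CPM in thi2Δ. The strains did not overlap, with a 1.74-fold rise (log2 fold change 0.80, SE 0.14, adjusted p = 1.4e-05).

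PSF3 rose less, from 14.2 ± 1.39 to 18.1 ± 1.93 CPM (SD, n = 3 each, log2 fold change 0.34, adjusted p = 0.0341), and it lost its call in 3 of the 6 fits that left out 1 library. For CDC45, which was among the weakest members at 4.02 ± 0.755 FPKM in BSGX001, the values were 9.59, 8.95 and 6.79 CPM against 11.7, 10 and 10.2 CPM (log2 fold change 0.32, SE 0.17, adjusted p = 0.110). Its libraries did not overlap, the adjusted p missed the threshold with TMM, and with library totals CDC45 was called higher (0.54, adjusted p = 0.00866). SLD5, at 30 to 59 counts a library, was likewise not called with TMM (log2 fold change 0.33, SE 0.22, adjusted p = 0.219) and called higher with library totals (0.55, adjusted p = 0.0363).

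MCM10 went the other way, from 63.3, 55.9 and 58.2 CPM to 43.7, 44.0 and 41.3 CPM. Its thi2Δ libraries lay below all of BSGX001 (log2 fold change -0.46, SE 0.084, adjusted p = 3.28e-05), and the call held with library totals at -0.25.

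The 6 ORC subunits mark origins throughout the cell cycle. ORC2 and ORC5 rose, ORC1 fell and ORC3, ORC4 and ORC6 were not called. ORC2 was at 14.3, 15.7 and 14.4 CPM against 22.7, 19.1 and 20.3 CPM, a 1.40-fold rise without overlap (log2 fold change 0.49, SE 0.13, adjusted p = 0.00171). ORC5, an ATP-binding subunit, rose from 23.0 ± 0.722 to 30.9 ± 2.50 CPM (log2 fold change 0.42, adjusted p = 0.0013).

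ORC1, the subunit whose ATPase drives MCM loading, was at 68.1, 73.1 and 71.8 CPM and at 57.8, 53.8 and 62.5 CPM. It fell by 0.29 on the log2 scale without overlap (SE 0.080, adjusted p = 0.0036), and with library totals its value was -0.072 and was not called. Per length, ORC6 was the most abundant of the 6 in both strains, at 39.9 and 49.5 FPKM, and ORC2 the least, at 7.39 and 12 FPKM.

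Some subunits of each polymerase were called and others were not or went the other way, and differences between subunits were not tested. In polymerase alpha-primase the B subunit gene POL12 rose from 33.6, 32.6 and 29.8 CPM to 45.6, 43.0 and 41.5 CPM, with no overlap (log2 fold change 0.44, SE 0.092, adjusted p = 0.000224). The catalytic gene POL1 was at 35.2, 30.3 and 22.8 CPM against 30.5, 27.2 and 29.2 CPM, spread widely within BSGX001 and was not called (log2 fold change -0.03). Of the primase genes, PRI2 rose with a log2 fold change of 0.21 (adjusted p = 0.0345) and PRI1 was not called at 0.23 (adjusted p = 0.0846).

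In polymerase delta, which copies the lagging strand, the catalytic POL3 was at 39.7, 37.7 and 33.5 CPM and at 37.6, 36.4 and 35.4 CPM, so that its thi2Δ libraries lay inside the range of BSGX001. The second subunit POL31 was at 41.9, 47.0 and 36.7 CPM against 52.2, 51.1 and 53.8 CPM and rose (log2 fold change 0.32, SE 0.090, adjusted p = 0.00402). POL32 was not called, with a log2 fold change of 0.14.

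Polymerase epsilon copies the leading strand, and its 2 essential subunits went in opposite directions. The catalytic POL2 was at 37.5, 35.5 and 38.0 CPM and rose to 45.3, 46.8 and 43.4 CPM (log2 fold change 0.29, SE 0.088, adjusted p = 0.00744). DPB2 was at 70.3, 60.2 and 64.6 CPM and fell to 43.8, 40.3 and 39.8 CPM. Both sets were separate, and the DPB2 level in thi2Δ was 63.6% of that in BSGX001 (log2 fold change -0.65, SE 0.085, adjusted p = 1.65e-07), the largest fall among the 42. With library totals DPB2 was still lower, at -0.44.

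PCNA is a ring of 3 POL30 subunits, opened and closed by the RFC1 to RFC5 clamp loader. POL30, RFC4 and RFC5 rose, and RFC1, RFC2 and RFC3 were not called. POL30 was at 7.49, 7.86 and 6.5 CPM in BSGX001 and 13.7, 12 and 14 CPM in thi2Δ, a 1.81-fold rise without overlap (log2 fold change 0.86, SE 0.16, adjusted p = 4.92e-05).

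RFC5 was at 7.06, 7.13 and 7.51 CPM against 9.89, 12.6 and 10.4 CPM (log2 fold change 0.59, SE 0.17, adjusted p = 0.0052). RFC4 was at 13.8, 14 and 12.4 CPM against 19.2, 18.3 and 20.1 CPM (log2 fold change 0.51, SE 0.13, adjusted p = 0.00138). Both were separate between the strains. RFC5 and POL30 are neighbours that converge on chromosome II, with coding regions ending at 424829 and 424990, and as the use of strand in the counting is not given in the sources used here, reads near their ends could be shared.

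RFC3 was at 68.9, 72.9 and 69.8 CPM against 70.3, 65.6 and 66.3 CPM and overlapped (log2 fold change -0.06). Per length the loader genes were far apart in BSGX001, with RFC2 at 75.5 and RFC3 at 63.9 FPKM and RFC1 at 13.5, RFC4 at 12.8 and RFC5 at 6.30 FPKM. Of the 3 lower ones RFC4 and RFC5 rose and RFC1 was not called (log2 fold change 0.12).

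RPA, a trimer of RFA1, RFA2 and RFA3, coats single-stranded DNA at the fork. It was the one complex of 3 or more members in which every gene rose. RFA1 was at 202, 213 and 213 CPM in BSGX001 and 396, 377 and 377 CPM in thi2Δ (1.83-fold, log2 fold change 0.88, SE 0.066, adjusted p = 2.2e-12). RFA3 was at 7.49, 9.79 and 6.65 CPM against 13.7, 16.7 and 13.9 CPM (log2 fold change 0.87, SE 0.16, adjusted p = 4.98e-05). RFA2 was at 113, 103 and 115 CPM against 131, 153 and 141 CPM (log2 fold change 0.36, SE 0.075, adjusted p = 0.000195). In each gene the thi2Δ libraries were all above those of BSGX001.

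RFA1 lies on chromosome I, from 156754 to 158619 on the reverse strand, and chromosome I as a whole was higher in thi2Δ, the 85 tested genes having a median of 0.99 on the log2 scale. RFA1 ranked 60 of the 85, 0.12 below that median. RFA2 and RFA3 lie on chromosomes XIV and X, outside both raised regions.

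The log2 ratio of RFA1 counts to the mean of its partners was 2.80, 2.75 and 2.94 in BSGX001 and 3.23, 2.90 and 3.09 in thi2Δ. These overlapped, and the difference of 0.24 was not beyond the spread (exact two-sided permutation test, p = 0.2). The partners disagreed, as the difference was 0.51 against RFA2 alone (exact p = 0.1, the smallest possible) and -0.028 against RFA3 alone (exact p = 1). With RFA1 and MCM5 set aside, 16 of 40 members were higher and 5 were lower, beside 26.1% and 25.2% of all genes tested. The median of these 40 was 0.18, beside -0.0053 over the 5542 other genes outside both raised regions.

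RAD27 removes the flaps at the ends of Okazaki fragments and CDC9, DNA ligase I, seals them. RAD27 was at 25.7, 30.5 and 24.6 CPM against 36.9, 44.2 and 43.1 CPM, 1.53-fold higher without overlap (log2 fold change 0.61, SE 0.10, adjusted p = 1.12e-05). CDC9 was at 36.4, 41.8 and 34.8 CPM against 40.3, 45.5 and 49.1 CPM, called higher (log2 fold change 0.25, adjusted p = 0.0299) although the lowest thi2Δ library was below the highest of BSGX001. The call was lost in 4 of the 6 fits that left out 1 library.

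RNR joins a large subunit, RNR1 or its damage-inducible paralog RNR3, with a small subunit made of RNR2 and RNR4. Among the 4 genes only RNR1 was called with TMM. With library totals RNR2 (log2 fold change 0.37) and RNR4 (0.30) were also called higher. RNR1 was at 14.4, 19.1 and 18.1 CPM in BSGX001 and 26.8, 22.9 and 24.6 CPM in thi2Δ, without overlap (log2 fold change 0.54, SE 0.12, adjusted p = 0.000549). RNR3 was at 84.6, 77.7 and 70.9 CPM against 72.8, 67.6 and 69.7 CPM (log2 fold change -0.15, SE 0.079, adjusted p = 0.110), and its ranges overlapped.

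RNR2 was at 76.2, 81.1 and 86.6 CPM against 83.6, 93.4 and 93.4 CPM (log2 fold change 0.15, adjusted p = 0.109), and RNR4 at 156, 164 and 173 CPM against 164, 186 and 174 CPM (log2 fold change 0.09, adjusted p = 0.319). Both overlapped. RNR2 became called at 0.20 without the first thi2Δ library and RNR3 at -0.21 without the third BSGX001 library, so neither is shown to be constant.

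Per length, the small subunit gene RNR4 was the highest of all 42 members in BSGX001, at 147 ± 5.24 FPKM, and RNR1 was among the 4 lowest, at 5.98 ± 0.797 FPKM. RNR3 was at 27.7 ± 2.85 FPKM and was above RNR1 in all 6 libraries. The FPKM ratio of RNR3 to RNR1 was 5.98, 4.16 and 4.01 in BSGX001 and 2.78, 3.02 and 2.90 in thi2Δ.

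These ratios were lower in thi2Δ without overlap, by 0.68 on the log2 scale of counts (exact two-sided permutation test, p = 0.1, the smallest possible). RNR1 relative to RNR2 and RNR4 was higher by 0.41 on the same scale (exact p = 0.1). The first BSGX001 library had the highest RNR3 to RNR1 ratio, and without it the difference was -0.49. RNR1 and RNR3 share 77.1% of aligned coding bases, with identical runs of up to 38 bases, so the split of reads between them is uncertain. RNR2 and RNR4 share 68.3%, with identical runs of up to 14 bases.

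**Figure D4:**
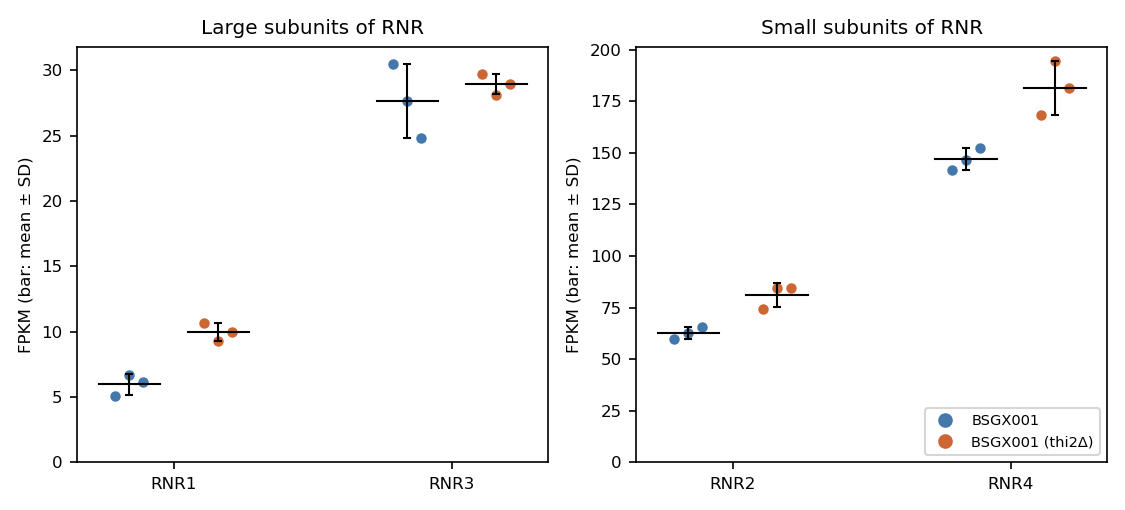
Deposited FPKM of the large subunit genes RNR1 and RNR3 (left) and the small subunit genes RNR2 and RNR4 (right) in each library, with mean ± SD bars (n = 3 libraries per strain). FPKM is scaled to library totals, on which RNR2 and RNR4 also lie higher in thi2Δ, whereas with TMM only RNR1 was called.

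The log2 fold change, taken with its sign, was lower in members with a higher level. Of the 40 members outside chromosome I and the chromosome XII segment, the 9 with a mean under 20 CPM had a median log2 fold change of 0.51, with 7 higher and 0 lower. The 19 members between 20 and 60 CPM had a median of 0.21, with 8 higher and 2 lower, and the 12 members at 60 CPM or more had -0.05, with 1 higher and 3 lower. Spearman's rho between level and log2 fold change was -0.70 over the 40 members, all measured in the same 6 libraries.

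Other genes outside the regions had the same tendency. Their medians were 0.21 under 20 CPM, 0.12 between 20 and 60 CPM and -0.10 at 60 CPM or more, with a rho of -0.45 over 5541 genes. In the lowest class 28.9% of these genes were higher and 7.67% lower, beside 77.8% and 0% of the members. Between 20 and 60 CPM 34.5% were higher and 11.2% lower, close to the 42.1% and 10.5% of the members. At 60 CPM or more 16.3% were higher and 39.2% lower, beside 8.33% and 25% of the members. By coding length, members under 1300 bases had a median of 0.34 (n = 16) and members of 2300 bases or more -0.03 (n = 12), while for other genes the medians were 0.023 and -0.066. The part of level or length in the members' values was not tested.

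Around the core machinery, 66 genes of 5 related lists were read in the same fit, and 26 rose (39.4%, beside 26.1% of all genes), 13 fell (19.7%, beside 25.2%) and 27 were not called, with a median of 0.15. By library totals 38 of the 66 were higher and 7 lower, shares near the 51.9% and 10.3% of all genes. The median by that scaling was 0.36, beside 0.22 over all genes. Of the 23 other initiation and fork factors 10 rose (43.5%) and 2 fell (8.7%). The rises were led by CTF18 of an alternative clamp loader (0.65), DPB11, which helps to assemble CMG (0.54), and its partner SLD2 (0.46). TAH11, the yeast Cdt1 that brings MCM to origins, fell by 0.88 (adjusted p = 2.41e-11), from 615, 515 and 585 CPM to 333, 289 and 308 CPM, and the kinase gene CDC7 fell by 0.40.

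Of 9 genes of deoxyribonucleotide supply beside RNR, 6 rose (66.7%, beside 26.1% of all genes) and 1 fell (11.1%, beside 25.2%). By library totals 8 of the 9 were higher and 1 lower, beside 51.9% and 10.3% of all genes. CDC21, thymidylate synthase, was at 7.28, 7.98 and 6.5 CPM against 12.2, 17.2 and 11.3 CPM (log2 fold change 0.88, SE 0.18, adjusted p = 0.000118). DCD1, dCMP deaminase, was 0.87 higher and DUT1, dUTPase, 0.59 higher, while the thioredoxin reductase gene TRR1 fell by 0.47.

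Of the 11 RNR regulators and damage kinases 5 rose (45.5%, beside 26.1% of all genes) and 2 fell (18.2%, beside 25.2%). By library totals 8 of the 11 were higher and 2 lower, beside 51.9% and 10.3% of all genes. The RNR inhibitor SML1 was at 683, 698 and 745 CPM and fell to 469, 520 and 550 CPM (log2 fold change -0.47, adjusted p = 2.91e-06). HUG1, a small damage-induced RNR inhibitor, fell from 14.6 ± 1.23 to 7.67 ± 1.64 CPM (log2 fold change -0.95, adjusted p = 1.58e-05). The checkpoint kinase RAD53 rose from 57.3 ± 3.63 to 81.9 ± 3.05 CPM (log2 fold change 0.51, adjusted p = 2.41e-06), WTM2 rose by 0.37, and RFX1, the repressor of damage-induced RNR genes, rose by 0.33.

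Of the 10 damage-inducible repair genes 1 rose (10%, beside 26.1% of all genes) and 6 fell (60%, beside 25.2%). The rise was DIN7 (0.42), and the falls included the excision repair genes RAD7 (-0.48) and RAD2 (-0.39) and the photolyase PHR1 (-0.26). The side of 0 depended on the scaling, as the median of this list was -0.18 with TMM and 0.04 with library totals. By library totals 2 of the 10 were higher and 2 lower, beside 51.9% and 10.3% of all genes. Only RAD7 and RAD2 of the 6 stayed called lower. Of 13 genes of MBF and the G1/S transition, 4 rose (30.8%, near the 26.1% of all genes) and 2 fell (15.4%). The cyclins CLN1 (0.50) and CLB5 (0.47) and the regulator STB1 (0.32) were higher, and SWI6 (-0.32), the shared subunit of MBF and SBF, and the repressor WHI5 (-0.29) were lower with TMM, whereas with library totals they were at -0.11 and -0.07 and not called. These lists were chosen with earlier results of the data known, and their difference from the members was not tested.

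**Figure D5:**
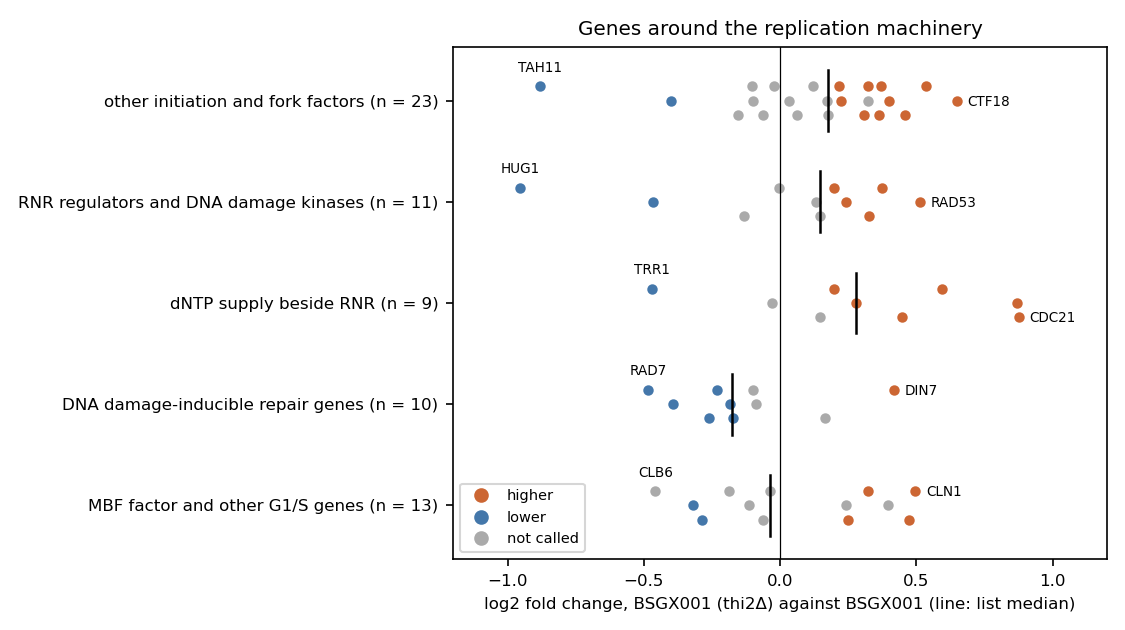
Log2 fold change, BSGX001 (thi2Δ) against BSGX001, of the 66 genes of 5 related lists, 1 point a gene (orange higher, blue lower, grey not called, spread vertically for legibility), with the list median as a line. The outermost gene on each side is named, and the damage-inducible list has a median of -0.18 on this TMM scale and of 0.04 with library totals.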

How the data were processed

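RNA was selected with oligo(dT), made into double-stranded cDNA and sequenced on an Illumina HiSeq instrument. The authors deposited per library a table of counts (reads per gene, whole numbers in a column headed expected_count) and of FPKM per gene. FPKM was computed by the authors per kilobase and scaled to the reads of the library. The submitters' processing notes name genome build R64 and DESeq, and the aligner is not given in the sources used here. The authors' DESeq tables hold base means, fold changes and p-values and were not used, nor were 12 further columns of tables covering the whole series.

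Counts were tested with edgeR 4.0.16 (R 4.3.3, TMM, filterByExpr, glmQLFit robust, glmQLFTest, Benjamini-Hochberg over 5774 genes, called at an adjusted p under 0.05), 3 against 3 libraries, with no covariate. Totals were 7584920 to 12255688 counts, and the common biological coefficient of variation 0.0628. Every pair of libraries differed beyond sampling noise (chi-square per degree of freedom at least 4.05). The replicate numbers were not taken as pairs, since same-numbered deviations correlated at 0.083, -0.068 and -0.054. Ratios within a library were compared by exact permutation with scipy 1.17.1. Alternatives were DESeq2 1.42.0, limma 3.58.1 on log2(FPKM + 1) and log2(FPKM + 0.1), other scalings and filters, the replicate block, the fit without chromosome I and the chromosome XII segment, and leaving out each library. Procedures were run on simulated counts with few genes changed, equally often up and down, which does not test the choice of scaling. Sequences came from the RefSeq assembly R64, in which all 42 members matched by gene ID. Library values were given for members called at least 1.5-fold, the partners of RFA1 and MCM5, the RNR genes and the extremes of each complex, and from the other lists up to 3 rises and 3 falls were named. The members and lists were chosen with earlier results of these data known, the level and length classes and the motif search after the values were seen.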

Additional observations from a re-analysis of the deposited data

How the results depend on the processing

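The scaling decided most. With library totals, 32 members were higher and 2 lower with a median of 0.43, and limma gave 32 and 2 with a median of 0.43 on log2(FPKM + 0.1) and 0.41 on log2(FPKM + 1). Members near 0 changed sign: with library totals MCM4 0.19, MCM7 0.12, POL1 0.18, POL3 0.19, RFC2 0.17, RFC3 0.15 and RNR3 0.063, with limma on log2(FPKM + 0.1) 0.19, 0.13, 0.21, 0.20, 0.18, 0.15 and 0.070, and on log2(FPKM + 1) 0.18, 0.13, 0.18, 0.18, 0.17, 0.15 and 0.067. MCM6 was -0.0038 with DESeq2, -0.0043 with its size factors and -8.89e-05 with the replicate block. The RFA1 ratio was -0.028 against RFA3 alone. With the replicate block 23 members were called, 18 higher and 5 lower, and no call among the members and named genes changed. With each library left out in turn 20 to 23 members were called, 6 to 8 at least 1.5-fold, with medians of 0.18 to 0.24 and 29 to 35 calls among the other lists. The ranges were -0.075 to 0.011 for MCM4, -0.046 to 0.028 for MCM6, -0.16 to 0.023 for MCM7, -0.18 to 0.12 for POL1 and -0.086 to 0.034 for POL3. Calls of PSF3, PRI2, CDC9, SLD2, PHR1 and STB1 were each lost under 3 or 4 of these 6 omissions, and that of WHI5 without thi2Δ replicate 2. DESeq2 did not call PSF3, PRI2, CDC9 and STB1. At an adjusted p under 0.01, 20 members were called. The causes were not tested.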
